A study of Homo sapiens with 8 samples.

Results

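Chromosome 13 is among the human chromosomes with the fewest genes for its length, and its open chromatin was described here in HEK293 cells before and after hyperosmotic stress. The set comprised every peak that the deposited accessibility table places on chromosome 13, which were 6100 of 129536 peaks. Of these, 6097 passed the filter on low counts, against 129487 over the whole table. The chromosome had been selected on a measured value, the high median change of its peaks in an earlier analysis of the same libraries. Its overall rise and the counts of its called peaks are therefore descriptions and carry no test.

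Accessibility was measured with Omni-ATAC-seq in HEK293 cells of eGFP-YAP genotype: nuclei are exposed to a transposase that cuts and tags DNA where it is open. HEK293 is a human embryonic kidney line with an abnormal karyotype. The vehicle group held 4 libraries, and the sorbitol group held 4 libraries from cells exposed to 0.2 M sorbitol for 1 h. The series description states that cells were starved of serum before exposure, and the sample titles name HEK293 without the transgene that the genotype field gives. Sorbitol in the medium makes cells lose water and shrink. The labels do not say whether replicates came from separate cultures, so adjusted p-values measure the spread between these libraries, which may be technical.

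ATAC-seq reads concentrate at promoters and enhancers, where nucleosomes are displaced by bound factors. Gene-poor chromosome bands are usually AT-rich, replicate late and lie near the nuclear lamina, and their few genes are often very long. Several such genes encode adhesion molecules of neurons, among them the protocadherins. Peaks were separated into gene-end peaks, which lay no more than 1 kb from the start or the end of a RefSeq gene, inside-gene peaks, which overlapped a gene elsewhere, and intergenic peaks.

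To show the kinds of gene start that were called higher or lower, the 150 bases upstream of 6 RefSeq starts with a peak are printed 5′ to 3′ on the strand of the gene, with each CpG dinucleotide in capitals. The first belongs to the only protein-coding start called higher among 19 with a peak examined in the 61 to 81 Mb stretch described below. The next 2 belong to the non-coding starts with the smallest p among those called higher there. The last 3 belong to the protein-coding starts of the whole chromosome with the smallest p among those called lower.
NDFIP2: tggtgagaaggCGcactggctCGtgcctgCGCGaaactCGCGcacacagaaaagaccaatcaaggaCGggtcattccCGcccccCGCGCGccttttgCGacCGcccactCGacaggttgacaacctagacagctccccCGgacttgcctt
LOC105370276: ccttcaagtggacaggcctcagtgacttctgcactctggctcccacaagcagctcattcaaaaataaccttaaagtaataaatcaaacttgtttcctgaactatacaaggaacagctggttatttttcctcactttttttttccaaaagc
LINC00358: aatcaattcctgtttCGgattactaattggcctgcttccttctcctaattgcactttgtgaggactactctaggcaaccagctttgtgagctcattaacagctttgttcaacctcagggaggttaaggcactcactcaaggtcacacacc
ADPRHL1: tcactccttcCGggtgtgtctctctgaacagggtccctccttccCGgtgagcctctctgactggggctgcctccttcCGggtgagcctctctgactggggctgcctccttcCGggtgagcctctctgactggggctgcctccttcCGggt
MTRF1: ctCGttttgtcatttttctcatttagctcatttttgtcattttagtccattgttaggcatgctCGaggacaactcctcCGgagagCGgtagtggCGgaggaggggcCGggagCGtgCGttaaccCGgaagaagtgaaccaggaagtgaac
NUP58: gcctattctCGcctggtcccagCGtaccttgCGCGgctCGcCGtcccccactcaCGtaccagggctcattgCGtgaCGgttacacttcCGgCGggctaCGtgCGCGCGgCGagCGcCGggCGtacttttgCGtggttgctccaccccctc
These sequences come from RefSeq (GRCh38.p14) and lie at chr13:79481005-79481154 on the plus strand for NDFIP2, chr13:80360089-80360238 on the plus strand for LOC105370276 and chr13:62029549-62029698 on the minus strand for LINC00358. The others lie at chr13:113449159-113449308 on the minus strand for ADPRHL1, chr13:41263577-41263726 on the minus strand for MTRF1 and chr13:25301475-25301624 on the plus strand for NUP58. The upstream stretches of NDFIP2 and NUP58 held 15 and 20 CpG, those of MTRF1 and ADPRHL1 held 9 and 5, and those of LINC00358 and LOC105370276 held 1 and 0. CpG number thus did not separate the higher from the lower starts among these 6.

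The 8 libraries held 11522266 to 19831471 counts in peaks. Levels are given in CPM, that is, counts scaled to 1000000 per library. Across chromosome 13 peaks, which are not independent replicates, log2 CPM (scaled by library totals, prior count 2) were compared between libraries. Any 2 libraries correlated at Pearson's r of 0.93 to 0.95 within a group and 0.87 to 0.90 between groups. Among HEK293 marker genes, the strongest gene-end peaks of LHX1, NEFL, NEFM and EYA1 had vehicle means of 14.6, 31.1, 6.16 and 2.11 CPM. PAX2 and PAX8 had no gene-end peak but had 11 and 6 peaks inside the gene. Of 6 genes of other cell types, PTPRC alone had a gene-end peak, at 1.16 CPM, and CD3E, ALB, MYH6 and INS had no peak.

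After sorbitol, chromatin of chromosome 13 was more accessible as a whole, and the rise was concentrated in 1 stretch. Of 6097 tested peaks, 1854 (30.4%) were called higher at an adjusted p under 0.05 and 219 (3.59%) lower in edgeR's quasi-likelihood test. Over all 129487 tested peaks the shares were 16.0% higher and 13.1% lower. With a change of at least 2-fold added to the rule, 514 chromosome 13 peaks were higher and 12 lower, where the background over all peaks was 5.27% and 0.881%. The median log2 fold change was 0.28 on chromosome 13 and 0.00 on the other autosomes. Chromosome 13 had the highest median of the 22 autosomes. From the first peak to the last RefSeq gene end, it had the second lowest density of protein-coding genes (3.44 per Mb, 338 genes). Over the same span its density of peaks was the second highest (62.1 per Mb). That span leaves out the part of chromosome 13 before position 16114307, and densities over whole chromosome lengths were not computed.

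The rise was not spread evenly. Windows of 1 Mb between 61 and 81 Mb, a stretch chosen after the values were seen, held 2623 tested peaks, or 43% of those on the chromosome, and 1296 of its 1854 higher calls (69.9%). In that stretch 49.4% of peaks were higher and 11 peaks (0.419%) were lower, and the median log2 fold change was 0.53. Outside it, 558 of 3474 peaks were higher (16.1%) and 208 lower (5.99%), and the median was 0.08. The share of higher peaks outside the stretch was thus close to the 16.0% of all peaks, whereas the share of lower peaks was below the 13.1% of all peaks.

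Summed over the stretch, accessibility was 10879, 10533, 11343 and 11979 CPM in the vehicle libraries and 15707, 15204, 15786 and 15030 CPM in the sorbitol libraries. Every sorbitol library stood above every vehicle library, and the ratio of the means was 1.38. From 18 to 61 Mb, between the pericentromeric peaks and the stretch, the sums were 10933, 11042, 11215 and 10786 CPM in vehicle and 11052, 11202, 11095 and 11458 CPM in sorbitol, and the groups overlapped. Beyond 81 Mb the sums were 7878, 7813, 8176 and 8122 CPM in vehicle and 8879, 8841, 9031 and 9072 CPM in sorbitol. The groups did not overlap there either, and the ratio was 1.12. The median log2 fold change was -0.02 over 1587 proximal peaks and 0.18 over 1552 distal peaks.

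In the 335 intergenic peaks up to 18 Mb, next to the centromere, single libraries stood apart. Their sums were 935, 885, 743 and 1342 CPM in vehicle replicates 1 to 4 and 1353, 1147, 1293 and 769 CPM in sorbitol replicates 1 to 4. Replicate 4 was the highest vehicle library and the lowest sorbitol library, so the groups overlapped. Called higher in edgeR were 13 of these peaks and called lower 0 (0 in DESeq2, 3 at an unadjusted p under 0.05). When both replicate 4 libraries were left out, the median of chromosome 13 was 0.35 and that of the 61 to 81 Mb stretch 0.60.

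**Figure D1:**
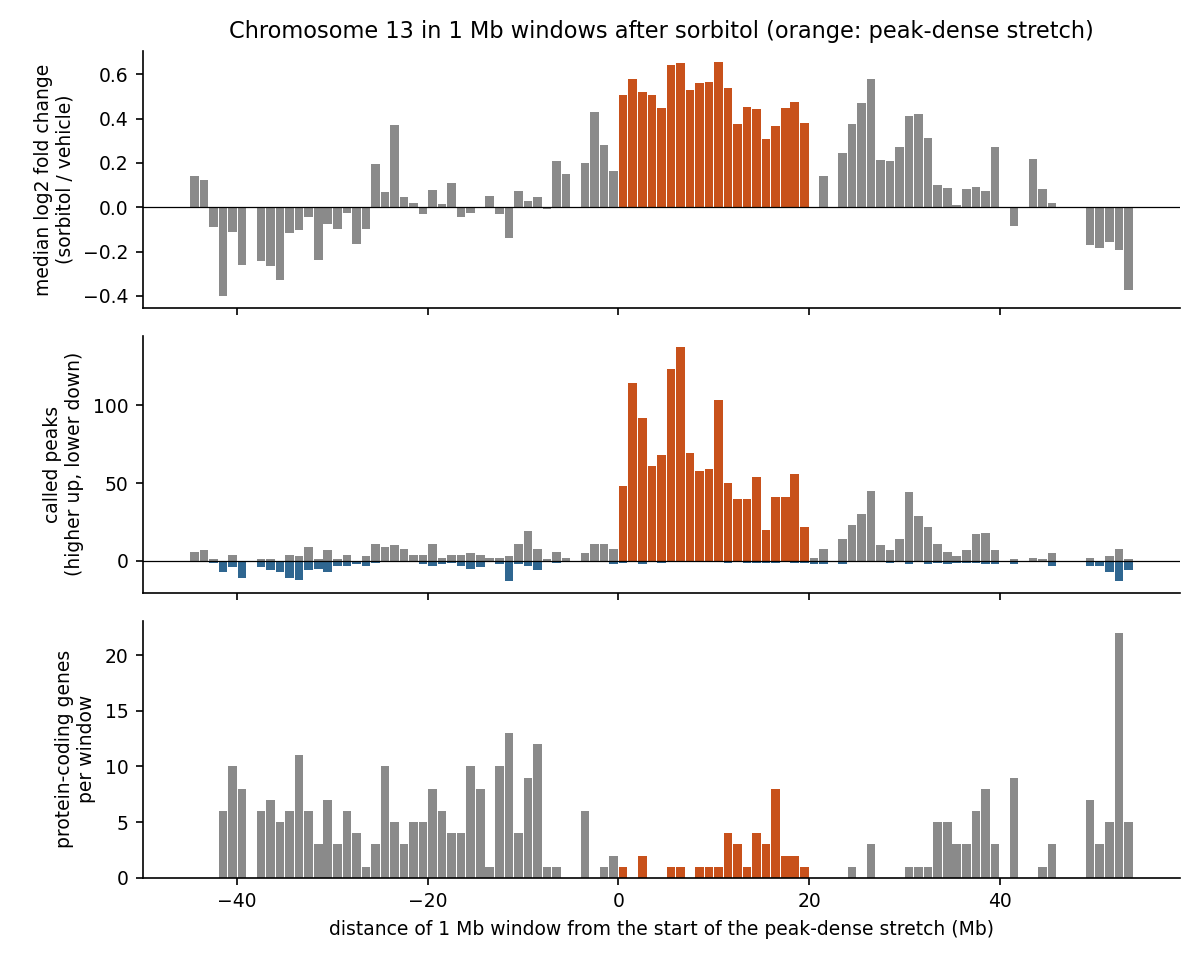
Chromosome 13 in 1 Mb windows with at least 10 tested peaks, placed by distance in Mb from the start of the peak-dense stretch (orange). From top to bottom the bars give the median log2 fold change of sorbitol over vehicle, the number of called peaks (higher upwards, lower downwards in blue) and the number of protein-coding genes. All 20 windows of the stretch have a median above 0, from 0.31 to 0.65.

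The stretch began abruptly. In bins of 250 kb, the 3 bins from position 61000001 held 6, 7 and 12 peaks, and the next bins, from 61750001 and 62000001, held 65 and 56. Mean summed vehicle accessibility was 26.7 CPM in the bin before the edge and 336 CPM in the bin after it, where sorbitol libraries averaged 503 CPM. The far end was gradual, with 31, 18, 26, 15 and 12 peaks per bin up to 81 Mb and 13 and 9 in the following 2 bins. Windows of the stretch held 71 to 202 tested peaks each with a median of 120, against a median of 41 in windows outside it. The number of peaks per window therefore moved with the change, and its part in the result was not tested. Copy number was not measured in these cells, so more copies of the stretch and more open sites per copy cannot be told apart in its peak number and summed CPM.

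Ranked by higher minus lower calls, the 5 leading windows were all in the stretch. The window of 67 to 68 Mb, which overlaps PCDH9, a neuronal adhesion protocadherin, had 137 of 202 peaks higher. Its summed accessibility was 993, 987, 1055 and 1119 CPM in vehicle and 1515, 1475, 1526 and 1492 CPM in sorbitol. Next came 66 to 67 Mb, which also overlaps PCDH9, with 123 of 182 peaks higher, and 62 to 63 Mb, which holds no protein-coding gene, with 114 of 192 higher. The window of 71 to 72 Mb, which holds DACH1, a transcriptional cofactor of organ development, had 103 of 167 peaks higher. The window of 63 to 64 Mb had 92 of 174 higher and 2 lower. In all 5, every sorbitol library exceeded every vehicle library in summed CPM, as it did in each of the 20 windows of the stretch. The 9 leading windows accounted for at least 50% of the 1642 calls by which higher peaks exceeded lower ones, and the stretch accounted for 1285 of them (78.3%).

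At the other end of the ranking stood windows between 19 and 28 Mb and the window of 49 to 50 Mb. The window of 21 to 22 Mb, which carries LATS2 and SKA3 among 8 genes, had 11 of 39 peaks lower. Its sums were 254, 272, 267 and 255 CPM in vehicle and 224, 246, 228 and 237 CPM in sorbitol, without overlap. The window of 49 to 50 Mb, with 13 genes including KPNA3 and SETDB2, had 3 higher and 13 lower of 46. The window of 27 to 28 Mb, with 11 genes including CDX2 and POLR1D, had 3 higher and 12 lower of 71, and its sums overlapped between groups. The windows of 19 to 20 Mb and 25 to 26 Mb each had 7 lower peaks, of 14 and 29, and tied with 26 to 27 Mb, where 4 were higher and 11 lower of 47. Outside the stretch, the largest excess of higher calls was at 87 to 88 Mb (45 of 99 peaks higher) and at 91 to 92 Mb (44 higher and 2 lower of 104).

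Windows with more genes changed less or in the other direction. Over 91 windows with at least 10 tested peaks, 61 had a median above 0, and Spearman's rho between the window median and its protein-coding gene number was -0.59. It was -0.57 over the 71 windows outside the stretch, -0.49 over its 20 windows and -0.48 over 2391 windows of the other autosomes. These values are descriptions: windows share the same 8 libraries, neighbours share chromatin context, and gene number goes together with base composition. Windows with 0 to 1, 2 to 4, 5 to 9 and 10 or more genes had median changes of 0.31, 0.13, -0.03 and -0.07 on chromosome 13. Without the stretch the values were 0.21, 0.05, -0.03 and -0.07, and on the other autosomes 0.13, 0.07, -0.003 and -0.19. The window with the most genes, 113 to 114 Mb with 22, had a median of -0.19. The first of the windows with 0 genes, 16 to 17 Mb, had a median of 0.14.

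The number of peaks per window also went with the change on chromosome 13. Its rho with the window median was 0.66 on chromosome 13, 0.34 on chromosome 13 outside the stretch and 0.07 on the other autosomes. Windows with at most 4 genes and at least 100 peaks numbered 18 on chromosome 13, with a median of 0.51, and 12 on the other autosomes, with a median of 0.24. The 18 included the pericentromeric windows, with medians of 0.14 and 0.12. Among the 12 were windows of chromosome 1 from position 122000001 to 125000000, with 0 genes, 202 to 388 peaks and medians of 0.20 to 0.22. The lowest of the 12, at 0.07, began at position 49000001 of chromosome 4. The part of such windows in the difference between 0.51 and 0.24 was not tested. The highest of those 12 lay at 124 to 125 Mb of chromosome 6 (0.70, with 62 of 102 peaks higher) and at 33 to 34 Mb of chromosome 18 (0.57, with 56 of 107 higher), so single windows of equal change occurred elsewhere. No test of this difference was made, since the chromosome was chosen on its change.

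**Figure D2:**
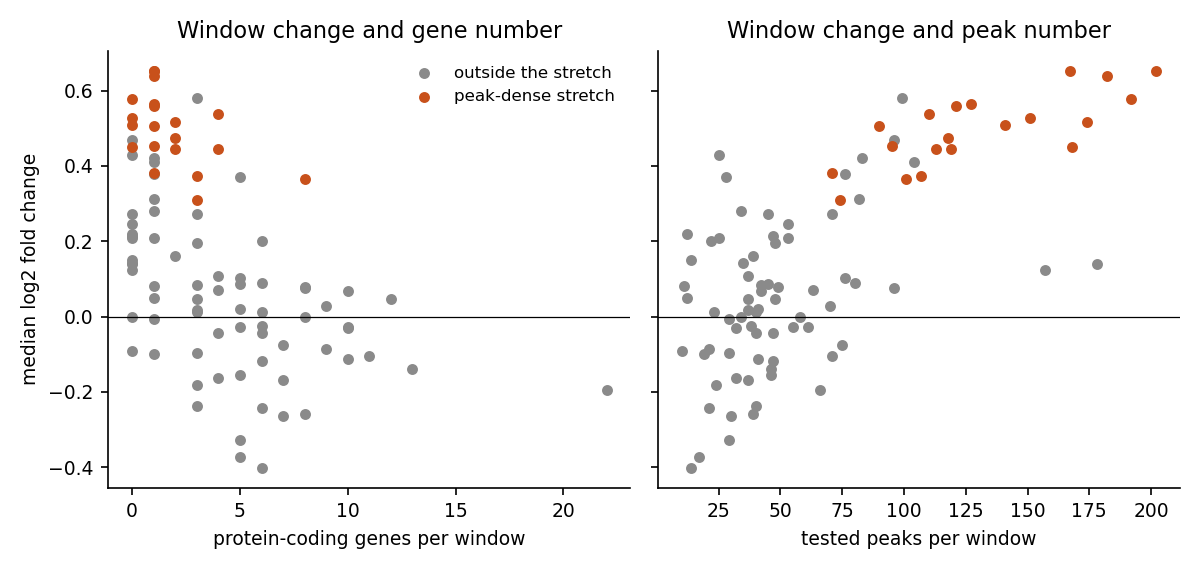
Median log2 fold change of each 1 Mb window of chromosome 13 against its protein-coding genes (left) and its tested peaks (right), with the stretch of 61 to 81 Mb in orange and other windows in grey. Change is lower in windows with more genes (rho -0.59) and higher in windows with more peaks (rho 0.66), and the 2 grey points with over 150 peaks and small change are the pericentromeric windows.

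By class, gene-end peaks of chromosome 13 divided almost evenly in the main fit, a split that other scalings changed, whereas far more peaks away from gene ends were higher than lower. The median log2 fold change of 580 gene-end peaks was -0.05, and 104 were higher (17.9%) and 96 lower (16.6%). On the other autosomes gene-end peaks were higher in 8.52% and lower in 33.5%, and their median was -0.17. Among 2547 inside-gene peaks, 840 were higher (33.0%) and 68 lower (2.67%). Their median was 0.30, against 0.06 on the other autosomes. The 2970 intergenic peaks comprised 910 higher (30.6%) and 55 lower (1.85%) peaks, and their median was 0.33 against 0.04. The gene-end median changed sign with the scaling of libraries: it was 0.04 with library totals alone, 0.13 with factors from gene-end peaks and 0.03 with an abundance-dependent offset. The counts of higher and lower gene-end peaks were then 131 and 66, 184 and 34, and 133 and 54. Factors from gene-end peaks moved the median of all tested peaks from 0.01 to 0.19. Relative to that median, chromosome 13 stood 0.27 higher under both scalings.

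Within the stretch peaks of all 3 classes were called higher far more often than lower, gene-end peaks included. Of 121 gene-end peaks there, 60 were higher and 2 lower (median 0.43). The 1008 inside-gene peaks comprised 544 higher and 3 lower (0.56), and the 1494 intergenic peaks 692 and 6 (0.52). Outside it, 44 gene-end peaks were higher and 94 lower of 459 (median -0.11), the counts were 296 and 65 of 1539 for inside-gene peaks (0.10), and 218 and 49 of 1476 for intergenic peaks (0.11). With factors from gene-end peaks the counts outside the stretch were 966 higher and 76 lower over all classes, against 558 and 208 in the main fit, and gene-end peaks there had 103 higher and 33 lower. The gene-end share of chromosome 13 counts was 34.2% ± 0.96 (SD, n = 4) in vehicle and 29.3% ± 1.33 (SD, n = 4) in sorbitol libraries. On the other autosomes it was 53.5% and 49.6%, and within the stretch 18.6% and 15.5%, so the share was lower in sorbitol in each.

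**Figure D3:**
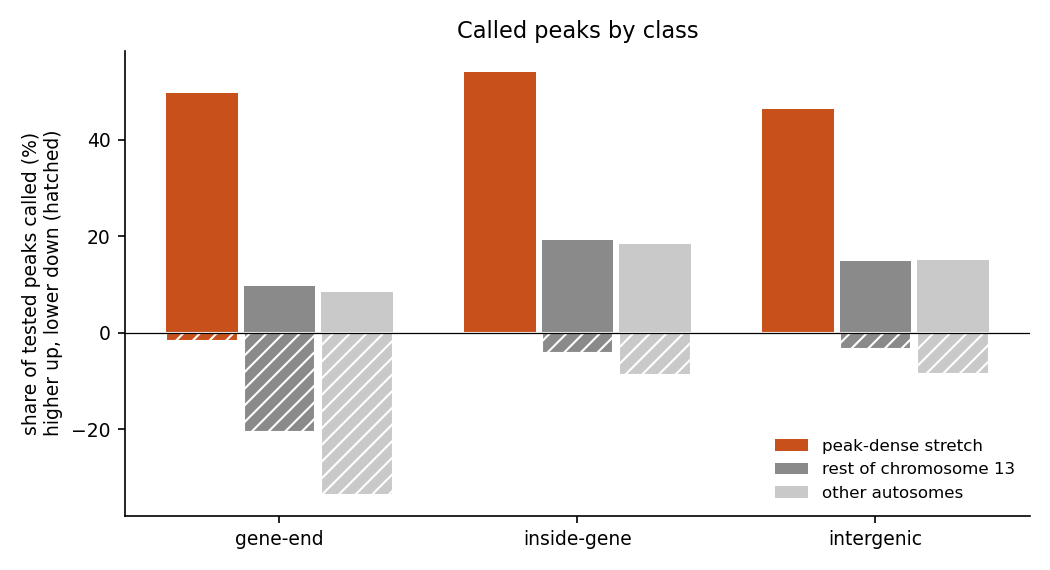
Share of tested peaks called higher (upwards) and lower (downwards, hatched) by class, for the peak-dense stretch, the rest of chromosome 13 and the other autosomes. Between 46.3% and 54.0% of peaks in each class are higher in the stretch, and outside it the shares of higher peaks are near those of the other autosomes.

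Change was also described by peak strength. Peaks of the stretch had a median of 2.13 CPM in vehicle and a median width of 349 bp, and those outside had 2.35 CPM and 386 bp. When all tested peaks were divided into 10 strength classes of equal number by mean CPM over all 8 libraries, the median change per class was 0.20 to 0.62 in the stretch, -0.12 to 0.17 on chromosome 13 outside it and -0.18 to 0.14 on the other autosomes. The lowest value was in the strongest class in each of the 3 sets. The part of strength in the difference was not tested.

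Starts of protein-coding genes in the stretch stood closer to 0 than other peaks there. In the stretch, 35 peaks overlapped the 300 bases around a RefSeq start, and 19 of these starts belonged to protein-coding genes and 16 to other genes, mostly long non-coding RNAs. Among the 19 protein-coding starts, 1 was higher, the median log2 fold change was 0.05, the median vehicle level 69.4 CPM and the median GC content 65%. Among the other 16, 11 were higher, and the medians were 0.49, 3.41 CPM and 41.5%. Called lower were 0 of the 35 in edgeR, 0 in DESeq2 and 0 at an unadjusted p under 0.05. Start type, strength and base composition moved together here, and their parts in the result were not tested. With factors from gene-end peaks or with the abundance-dependent offset, 13 of the 19 protein-coding starts were called higher. Outside the stretch, 14 of 186 protein-coding starts were higher, 55 were lower and the median was -0.16. That median was 0.02 with factors from gene-end peaks and 0.00 with the abundance-dependent offset.

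NDFIP2, an adaptor of NEDD4-family ubiquitin ligases, was the only one called higher among the 19 protein-coding starts examined in the stretch. A gene-end peak of PCDH20, which was not among those starts, was also called higher there (log2 fold change 0.21, adjusted p = 0.043 in edgeR). The NDFIP2 start peak (chr13:79480805-79481959) measured 75.8, 72.1, 79.3 and 79.1 CPM in vehicle and 110, 104, 103 and 113 CPM in sorbitol. All sorbitol libraries were higher, with a log2 fold change of 0.41 (SE 0.07, adjusted p = 2.78e-05 in edgeR). Values at other strong protein-coding starts of the stretch, chosen after they were seen, were smaller: the log2 fold change was -0.01 at MZT1, a subunit of the gamma-tubulin complex, 0.00 at DIS3, the catalytic exosome ribonuclease, and -0.10 at KLF5, a zinc-finger transcription factor. None of these passed the test (adjusted p = 0.904, 0.996 and 0.336 in edgeR), and their vehicle means were 150, 104 and 128 CPM. COMMD6 and KCTD12 stood at 0.15 and 0.13, and RBM26-AS1, a non-coding start next to NDFIP2, at 0.14. These did not pass either (adjusted p = 0.128, 0.200 and 0.181 in edgeR), although the groups did not overlap at COMMD6 and RBM26-AS1. The non-coding start of LOC105370276 measured 19.8, 20.8, 26.2 and 21.6 CPM in vehicle and 28.1, 34.5, 33.0 and 32.9 CPM in sorbitol, without overlap (adjusted p = 0.000182 in edgeR). At the weaker start of LINC00358 the values were 3.35, 3.79, 3.18 and 3.52 CPM in vehicle and 7.72, 5.10, 6.50 and 5.71 CPM in sorbitol, also without overlap.

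The 3 lower starts lay outside the stretch. The start of ADPRHL1, a relative of the ADP-ribosylhydrolases, measured 41.6, 44.3, 46.9 and 40.3 CPM in vehicle and 22.4, 30.7, 31.5 and 32.1 CPM in sorbitol. That of MTRF1, a mitochondrial translation release factor, measured 19.6, 23.1, 23.4 and 21.2 CPM in vehicle and 12.4, 16.3, 14.8 and 15.5 CPM in sorbitol. That of NUP58, a nuclear pore protein, measured 22.7, 27.9, 22.5 and 27.0 CPM in vehicle and 15, 18.2, 16 and 19.3 CPM in sorbitol. The ADPRHL1 start peak lay 3806 bp from the end of the gene's RefSeq span, so it was classed as inside-gene, as was the start peak of MTRF1. In each of the 3 the groups did not overlap, and the log2 fold changes were -0.65, -0.65 and -0.62 with edgeR adjusted p-values of 3.38e-07, 3.07e-06 and 4.23e-06.

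Motifs were counted on both strands in the 300 bases around each start, 250 before and 50 after it. Of 303 chromosome 13 starts with a peak, taking 1 start for each peak, 17 (5.61%) held the AP-1 motif TGANTCA, against 7.71% of all 35116 starts in the RefSeq table. The TEAD motif GGAATG, bound by the partners of YAP, was in 34 (11.2%) against 14.0%, the GC box GGGCGG in 167 (55.1%) against 45.0%, and the CCAAT box, spelled CCAAT, in 91 (30.0%) against 34.6%. The starts of the RefSeq table were taken with or without a peak. Among all 892 chromosome 13 starts, likewise with or without a peak, the shares were 9.08%, 12.9%, 35.2% and 31.8% in the same order. In the 35 starts of the stretch the AP-1 motif occurred in 5, the TEAD motif in 7, the GC box in 13 and the CCAAT box in 13. Of 15 starts of the stretch with a GC content under 50%, 7 were higher, and of 11 at 65% or more, 1 was. Outside the stretch, 5 of 45 starts under 50% were higher and 7 lower, and at 65% or more 13 of 131 were higher and 36 lower.

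Of all inside-gene peaks of the stretch 54.0% were higher, and its long genes lay on both sides of that share. Inside PCDH9, 133 of 181 peaks were higher, and their summed accessibility was 896, 890, 934 and 974 CPM in vehicle and 1494, 1409, 1487 and 1463 CPM in sorbitol. Inside DACH1, 53 of 76 peaks were higher, with sums of 393, 389, 396 and 391 CPM in vehicle and 612, 621, 621 and 624 CPM in sorbitol. Both ratios of means were 1.58. KLHL1, a kelch protein of neurons, had 28 of 54 peaks higher (ratio 1.44), and KLF12, a zinc-finger repressor, had 34 of 81 higher, or 42%, and 1 lower (1.29). The groups did not overlap in any of these 4 genes.

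The start of PCDH9 did not follow the inside of the gene: its strongest gene-end peak averaged 221 CPM in vehicle and 226 CPM in sorbitol (log2 fold change -0.05, adjusted p = 0.683 in edgeR). At DACH1 the strongest gene-end peak averaged 69.4 and 72.1 CPM (-0.03, adjusted p = 0.824 in edgeR). Outside the stretch, the glypican genes GPC5 and GPC6, which encode heparan sulfate proteoglycans, had 46 of 123 and 19 of 96 inside peaks higher, with ratios of 1.32 and 1.12. NBEA, a neuronal trafficking protein, had 7 of 19 higher, and MYO16, an unconventional myosin, 0 of 6. Called lower were 0 inside peaks of GPC5, 2 of GPC6, 0 of NBEA and 2 of MYO16. Density of inside peaks also differed, with 19.5 per 100 kb in PCDH9 and 17.7 in DACH1 against 8.38 in GPC5 and 2.60 in NBEA.

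**Figure D4:**
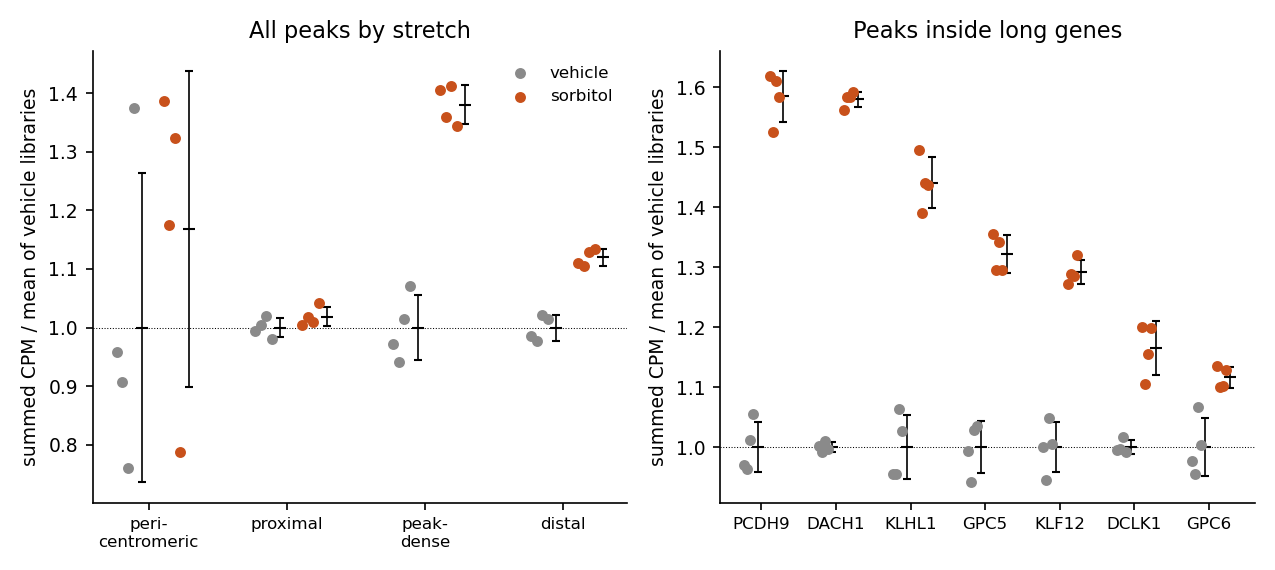
Summed CPM of each library divided by the mean of the 4 vehicle libraries, for all peaks of 4 stretches (left) and for inside-gene peaks of 7 long genes with at least 20 such peaks (right). Points are libraries (grey vehicle, orange sorbitol), bars are mean ± SD, and the y axes do not start at 0. Groups overlap in the pericentromeric and proximal stretches alone.

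Gene-end peaks of 4 gene lists were examined, with each gene represented by its strongest gene-end peak. As background, 16.6% of gene-end peaks were lower on chromosome 13 and 33.5% on the other autosomes, and 55 of 186 protein-coding starts were lower outside the stretch. Of 16 long or neuronal genes with such a peak (20 in the list), 4 rose, 2 fell and 10 did not pass the test, with a median log2 fold change of 0.03 against 0.01 over all tested peaks. The gene-end peak of KLF12 rose from 16 ± 0.88 to 22.4 ± 2.08 CPM (SD, n = 4 each; adjusted p = 0.00141 in edgeR). A stronger KLF12 start (chr13:74133545-74136221), which lies inside the gene's RefSeq span, averaged 173 and 190 CPM and did not pass (log2 fold change 0.05, adjusted p = 0.649 in edgeR). The protocadherins PCDH17, PCDH8 and PCDH20 rose by log2 fold changes of 0.25, 0.32 and 0.21, which did not pass in 5, 7 and 11 of 18 alternative fits. SLITRK1, a synaptic adhesion protein, fell from 10.7 ± 1.43 to 7.70 ± 1.41 CPM (SD, n = 4 each; adjusted p = 0.00149 in edgeR), and TDRD3, a chromatin reader, fell by 0.21 on the log2 scale. The TDRD3 value was 0.01 with factors from gene-end peaks.

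Of 14 developmental regulators with a gene-end peak (15 in the list), 5 fell, 0 rose and 9 did not pass, and the median was -0.09. The count of 0 was the same in DESeq2 and at an unadjusted p under 0.05. GSX1, a homeodomain factor of the forebrain, fell from 13.3 ± 1.09 to 9.68 ± 0.87 CPM (SD, n = 4 each; adjusted p = 0.000399 in edgeR). ZIC2, a zinc-finger factor of neural development, fell from 87.4 ± 4.21 to 72.9 ± 4.94 CPM (SD, n = 4 each; adjusted p = 0.000563 in edgeR). CDX2, ZIC5 and EFNB2 fell by 0.26, 0.20 and 0.22 on the log2 scale, and missed the threshold in 5, 12 and 12 of 18 alternative fits. The share that fell was near that of gene-end peaks on the other autosomes. With factors from gene-end peaks 2 genes of the list were higher and 2 lower, and with factors from contig peaks 0 and 0.

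Of 30 housekeeping and genome-maintenance genes with a gene-end peak (31 in the list), 9 fell, 0 rose and 21 did not pass, and the median was -0.14. In DESeq2 0 rose, and at an unadjusted p under 0.05 in edgeR 1 did. CDK8, the kinase of the Mediator complex, measured 27.6, 25.6, 27.3 and 30.8 CPM in vehicle and 19.4, 18.6, 20.9 and 21.5 CPM in sorbitol, without overlap. Its log2 fold change was -0.54 (SE 0.09). ING1, KPNA3, ESD, POLR1D, XPO4, GTF3A and TFDP1 fell by 0.34, 0.34, 0.29, 0.26, 0.28, 0.28 and 0.32 on the log2 scale. The last 4 of these missed the threshold in 5 to 9 of 18 alternative fits. Peaks of ING1 and POLR1D also lay at the ends of CARS2 and LNX2, so their fall cannot be assigned to the listed gene alone. With factors from gene-end peaks the list had 6 higher and 1 lower, and with the abundance-dependent offset likewise 6 and 1. With factors from contig peaks 0 were called. The share of the list that fell was near that of protein-coding starts outside the stretch, a set from which listed genes were not removed. RB1, the retinoblastoma tumour suppressor, measured 33.2 CPM in vehicle and 40.1 CPM in sorbitol (adjusted p = 0.0863 in edgeR).

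Of 5 stress and Hippo genes, 1 fell and 4 did not pass, beside 13.1% lower among all peaks, and with factors from contig peaks 0 were called. HSPH1, a chaperone of the HSP110 family, measured 50.2, 52.2, 51.3 and 49.7 CPM in vehicle and 39.1, 40.5, 38.2 and 46.0 CPM in sorbitol (log2 fold change -0.39, SE 0.08, adjusted p = 0.000241 in edgeR). LATS2, a kinase that phosphorylates YAP, averaged 20.1 and 18.4 CPM (adjusted p = 0.128 in edgeR). Both lie in the proximal stretch.

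Among single peaks changed at least 2-fold, the best supported lay inside genes of the stretch. A peak inside DACH1 (chr13:71860654-71861086) measured 6.37, 7.07, 5.19 and 5.90 CPM in vehicle and 16.5, 14.7, 13.6 and 15.3 CPM in sorbitol. Its log2 fold change was 1.21 (SE 0.13, adjusted p = 1.2e-10 in edgeR). A peak inside KLF12 (chr13:74132191-74132469) measured 8.74, 7.65, 7.66 and 5.96 CPM in vehicle and 15.4, 15.5, 16.6 and 18.5 CPM in sorbitol. A peak inside PCDH9 (chr13:67045226-67045729) measured 5.65, 4.60, 4.49 and 6.17 CPM in vehicle and 12.1, 14.0, 11.6 and 11.8 CPM in sorbitol. The adjusted p-values of these 2 were 2.03e-09 and 2.06e-09 in edgeR, and the groups overlapped in none of the 3 peaks.

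The intergenic peak with the smallest p (chr13:79791085-79791697) lay 1794 bp from LOC124903226 and measured 1.71, 0.862, 1.76 and 3.05 CPM in vehicle and 4.60, 6.69, 6.07 and 6.55 CPM in sorbitol (log2 fold change 1.64, adjusted p = 7.42e-08 in edgeR). The next 2, at chr13:62090164-62090555 and chr13:67335469-67336019, rose by log2 fold changes of 1.19 and 1.20. All 3 were in the stretch. Of 21 gene-end peaks called higher by at least 2-fold, the 3 named for the smallest p were at ATP12A, a proton and potassium pump, and at 2 non-coding genes. The ATP12A peak (chr13:24680258-24680922) lay outside the stretch and measured 2.63, 3.91, 2.62 and 3.39 CPM in vehicle and 7.90, 8.12, 5.81 and 8.01 CPM in sorbitol (log2 fold change 1.17, adjusted p = 5e-07 in edgeR). The peak of LOC105370241 (chr13:65835926-65836315) rose by a log2 fold change of 1.28 and that of LOC105370273 (chr13:78963173-78963385) by 2.10, from 0.38 to 1.79 CPM.

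Peaks that fell at least 2-fold were few and mostly outside the stretch. The gene-end peak near TUBGCP3 (chr13:112605903-112606128), which encodes a gamma-tubulin complex subunit, measured 2.17, 1.84, 1.87 and 1.76 CPM in vehicle and 0.781, 1.19, 1.04 and 0.906 CPM in sorbitol. Inside ATP8A2, a lipid flippase gene, a peak (chr13:25406509-25406739) fell from 1.42 to 0.535 CPM, and inside LOC105370285 a peak (chr13:82364480-82364705) fell from 1.37 to 0.648 CPM. The latter was not past the threshold without both replicate 4 libraries (adjusted p = 0.0513 in edgeR). An intergenic peak near the chromosome end (chr13:114352680-114353004) measured 2.23, 3.22, 3.03 and 2.98 CPM in vehicle and 0.955, 1.43, 1.13 and 0.975 CPM in sorbitol (log2 fold change -1.43, adjusted p = 3.08e-05 in edgeR). Another (chr13:61685582-61685994) fell from 3.25 to 1.49 CPM and lay in the last bin before the abrupt edge of the stretch. The third (chr13:21861250-21861573) fell from 1.99 to 0.821 CPM.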

How the data were processed

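Omni-ATAC-seq libraries, sequenced in 75 bp paired-end mode according to the labels, came from 4 vehicle and 4 sorbitol samples. The authors deposited 1 table of raw counts over shared peaks in GRCh38 coordinates, printed here as in the table, whose start base (0 or 1) is not stated. Per the submitters' processing notes, the tools were Trim Galore 0.6.10, FastQC 0.12.1, MultiQC 1.28, BWA 0.7.17, SAMtools 1.22, Picard, MACS2 2.2.9.1, bedtools, deepTools 3.5.4 and DESeq2. Whether reads or fragments were counted, and how peaks were merged, is not given in the sources used here.

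Counts of all peaks were fitted with edgeR 4.0.16 (R 4.3.3; glmQLFit and glmQLFTest, TMM factors, filterByExpr with a minimum count of 10 and a minimum total of 15, treatment as the single term), and p-values were adjusted by Benjamini-Hochberg over 129487 peaks at a threshold of 0.05. CPM are counts scaled to 1000000 counts in peaks per library, without TMM. A log2 fold change is edgeR's, sorbitol over vehicle. On simulated counts of 129487 peaks with 200 changed 2-fold for this comparison, 61.5% were recovered with 2 false calls. Simulated rises and falls were equal in number and dispersion was the same at every peak, so the simulation does not cover the effect of scaling. Windows of 1 Mb needed at least 10 tested peaks, which left out 8 windows with 51 peaks. Genes and starts were those of RefSeq GRCh38.p14. Of the marker genes, 1 is not reported here.

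In each class and direction, the 3 peaks with the smallest p among those past the threshold, changed at least 2-fold and without overlap between groups are named. Windows named are the 5 at each end by higher minus lower calls and those with the most and fewest genes. Each listed gene stands by its strongest gene-end peak, and up to 8 called per list are named. Others given by name (starts, long genes, windows outside the stretch, RB1, LATS2) were chosen after their values were seen. The chromosome, the lists and the comparisons were chosen with earlier results of these data known. Replicate numbers do not mark shared cultures in the labels, and deviations of same-numbered libraries correlated at 7.3e-05, 0.00647, -0.0309 and -0.132, so they were not treated as pairs. Alternatives were other scalings, DESeq2 1.42.0, other filters, a replicate block, leaving out libraries, a stricter threshold, and other window sizes and gene-end distances.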

Additional observations from a re-analysis of the deposited data

Results flagged for a closer look

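Among 116 groups of 4 libraries examined, 7 had 1 library far from the other 3 by Dixon's criterion, where chance gives about 1 in 20, or 5.8. The ATP12A gene-end peak was 5.81 CPM in sorbitol replicate 3, against 7.90 to 8.12 CPM in the other sorbitol libraries. The ATP8A2 inside-gene peak was 1.97 CPM in vehicle replicate 1 and 1.04 CPM in sorbitol replicate 1, both the highest of their group. The intergenic peak at chr13:62090164-62090555 was 2.59 CPM in vehicle replicate 2, the lowest of its group. The TFDP1 gene-end peak was 13.2 CPM in vehicle replicate 1, against 16.7 to 17 CPM in the others. The ADPRHL1 start peak was 22.4 CPM in sorbitol replicate 1, against 30.7 to 32.1 CPM in the others. Summed accessibility of distal inside-gene peaks was 3312 CPM in sorbitol replicate 2, against 3390 to 3399 CPM in the other sorbitol libraries.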

How the results depend on the processing

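The results for the chromosome, its classes, its windows and the stretch kept their values within the spread between libraries, or within 1.5 times for counts, with DESeq2 size factors, the DESeq2 Wald test, no filter, other window sizes, all RefSeq genes, other gene-end distances, a stretch of 62 to 80 Mb and no pericentromeric peaks. With the replicate block, 1722 peaks were higher and 204 lower, and the block changed none of these results beyond those limits. For windows above 0, other window sizes gave a share of 66% at 0.5 Mb and 68% at 2 Mb, against 67%.

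With library totals alone, 138 peaks were lower (133 outside the stretch), the chromosome median was 0.365, and the gene-end, inside-gene, outside and stretch gene-end medians were 0.0357, 0.380, 0.157 and 0.508. With factors from gene-end peaks, 78 were lower, and 966 higher and 76 lower outside the stretch. The medians were then 0.458 (chromosome), 0.129 (gene-end), 0.473 (inside-gene), 0.501 (intergenic), 0.702 (stretch), 0.25 (outside) and 0.602 (stretch gene-end). Factors from contig peaks used those of the 751 contig peaks that averaged at least 50 counts. With them, 814 were higher and 43 lower, 573 higher in the stretch, and 241 higher and 41 lower outside it. The gene-end, inside-gene and outside medians were -0.0905, 0.254 and 0.0278. With the loess offset, the chromosome, gene-end, inside-gene and outside medians were 0.222, 0.0308, 0.236 and 0.0340. The cause of these shifts was not tested.

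With a mean of at least 50 counts fewer peaks were tested: 844 were higher and 131 lower, 612 higher in the stretch, 232 higher and 126 lower outside it, and rho with gene density was -0.754. At a threshold of 0.01, 1174 were higher and 118 lower, and 310 higher and 113 lower outside the stretch. Leaving out each library gave inside-gene medians of 0.284 to 0.330 and stretch gene-end medians of 0.388 to 0.513. Without both replicate 4 libraries, an alternative added after seeing the data like those for the stretch, the chromosome, gene-end and intergenic medians were 0.350, -0.0907 and 0.436. Of 41 named peaks, 25 missed the threshold in at least 1 alternative, and TDRD3 changed sign, to 0.011, with factors from gene-end peaks. A GC-dependent offset was not run.

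Depth limits weak peaks most: the LOC105370273 and ATP8A2 peaks rest on few counts per library. Peak calling and merging, copy number and base composition beyond gene starts were not examined.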
